A study of Mus musculus with 4 samples.

Results

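Lyl1, Tal1 and Tal2 are read here in lymphoid-primed multipotent progenitors (LMPPs), early blood progenitors of mouse bone marrow that lean towards the lymphoid lineages. The members are all probe sets whose platform symbol is exactly Lyl1, Tal1 or Tal2. A probe set is a group of short probes that report on a single transcript or gene. They are 3 of 18193 genes and 4 of 45037 probe sets: 1 for Lyl1, 1 for Tal1 and 2 for Tal2. The study measured 2 libraries labelled Lyl1-null and 2 wild-type libraries, each on its own array. All came from C57Bl/6 mice aged 6 to 8 weeks, and the cells were sorted as lineage-negative, Kit-positive, Sca-1-positive and Flt3-high, with no culture. The Lyl1-null allele is cited by the labels from an earlier publication, and which part of Lyl1 it removes relative to the probes was not known here. Neither separate mice nor pooling is stated for the replicates, so a p-value covers the spread of these 4 libraries, possibly a technical one. Values are on the log2 scale, after the authors' RMA.

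Lyl1, Tal1 and Tal2 encode basic helix-loop-helix (bHLH) transcription factors. The basic region contacts the E-box, a short DNA word, and the helix-loop-helix pairs the protein with an E protein such as the product of Tcf3. In blood cells Tal1 and Lyl1 work in complexes with Lmo2, Ldb1 and GATA factors. Tal1 is required for the origin of all blood cells and later for erythroid and megakaryocytic cells. Lyl1 is dispensable for blood formation as such, but its loss reduces stem cell function and lymphoid output, and adult stem cells that lack both genes fail. All 3 human counterparts were found at chromosome breaks in T-cell leukaemia. The design thus lets 2 questions be asked of this family: whether the Lyl1 transcript is gone from the libraries labelled Lyl1-null, and whether the level of a relative differs there.

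The stretches upstream of the start sites are shown because the E-box and GATA words read by the complex can be looked for in the genes' own promoters. Each is a stretch of the plus strand of GRCm38.p6 from RefSeq, ending before the annotated gene. Lyl1 lies at chr8:84701207-84701422, Tal1 (the upstream of its 2 starts) at chr4:115056176-115056391 and Tal2 at chr4:53779451-53779666. Capitals mark CANNTG (the E-box, the same on both strands) and GATA or its reverse complement TATC.
Lyl1: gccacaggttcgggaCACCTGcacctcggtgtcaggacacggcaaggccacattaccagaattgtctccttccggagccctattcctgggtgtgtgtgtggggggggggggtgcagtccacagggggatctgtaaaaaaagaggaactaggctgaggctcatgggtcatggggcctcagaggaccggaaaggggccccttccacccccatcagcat
Tal1: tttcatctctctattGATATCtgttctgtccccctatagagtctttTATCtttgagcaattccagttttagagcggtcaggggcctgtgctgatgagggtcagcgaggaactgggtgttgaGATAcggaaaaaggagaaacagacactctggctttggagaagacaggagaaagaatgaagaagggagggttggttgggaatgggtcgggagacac
Tal2: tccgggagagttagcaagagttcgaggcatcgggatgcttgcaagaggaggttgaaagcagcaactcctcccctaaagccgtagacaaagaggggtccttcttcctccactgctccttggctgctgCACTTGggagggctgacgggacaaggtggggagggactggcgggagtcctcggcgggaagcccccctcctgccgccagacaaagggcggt
The Lyl1 and Tal2 windows each held 1 E-box word and no GATA word, and the Tal1 window held 4 GATA words, a pair of which overlap, and no E-box word. Of 32851 RefSeq promoter windows of this length, 61.6% held CANNTG and 50.1% held GATA or TATC. The expression arrays say nothing of binding at these words.

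The libraries labelled Lyl1-null were not alike. Array medians were 5.68 in the library labelled Lyl1-null 1 and 5.76 in the library labelled Lyl1-null 2, against 5.65 and 5.65 in wild type. The library labelled Lyl1-null 2 differed at least 2-fold from the other 3 libraries in 1236 to 2222 of 45037 probe sets, while those 3 differed among themselves in 108 to 324. Xist, the RNA that coats the inactive X chromosome of females, stood at 6.16 and 14.26 in the libraries labelled Lyl1-null 1 and 2, against 6.30 and 5.81 in wild type, and was high only in the library labelled Lyl1-null 2 of these 4. The Y-linked Eif2s3y read 10.07 and 8.44 in the libraries labelled Lyl1-null 1 and 2, against 10.15 and 10.12 in wild type. The Y-linked Kdm5d read 6.13 and 5.60 in the libraries labelled Lyl1-null 1 and 2, against 6.15 and 6.22 in wild type. Whether the library labelled Lyl1-null 2 holds RNA of more than a single mouse or genotype was not tested. Each comparison of a member with wild type is therefore given with both libraries and with each of them alone. Of the markers of the sorted cell type, Flt3, Kit, Cd34, Satb1 and Dntt lay above the median of all probe-set means (5.69). Erythroid markers, listed because Tal1 is high in that lineage, had a summed linear level over 7 genes of 585 and 865 in the libraries labelled Lyl1-null 1 and 2, against 1411 and 618 in wild type. Hba-a1, which encodes a chain of haemoglobin, was below the median. Endothelial markers, another cell type with these factors, summed over 6 genes to 414 and 440 in the libraries labelled Lyl1-null 1 and 2, against 411 and 404 in wild type, with Cdh5, Emcn and Tek below the median. Granulocyte and monocyte markers had a median difference of 1.18 over 8 genes, with S100a9 below the median. The median difference was 1.41 and 0.95 in the libraries labelled Lyl1-null 1 and 2 alone. Of the 8 differences, 5 were positive and 3 negative. Limma called 0 of them over all probe sets, with 6 at an unadjusted p under 0.05, as were 3551 of all 45037 probe sets. In 5 of the 8, both libraries labelled Lyl1-null lay above both wild-type libraries, a pattern found in 27.3% of all probe sets. That share was higher, at 37.2%, among probe sets below the median mean, where of the 8 only S100a9 lies. The summed level of the 8 was 5813 and 4616 in the libraries labelled Lyl1-null 1 and 2, against 5706 and 7192 in wild type. B cell markers summed to 2390 and 2033 in the libraries labelled Lyl1-null 1 and 2, against 1694 and 1698 in wild type, with Pax5 and Ms4a1 below the median. T and NK cell markers summed to 3377 and 2917 in the libraries labelled Lyl1-null 1 and 2, against 2558 and 2447 in wild type, with Cd3d, Cd3g and Ncr1 below the median. Megakaryocyte markers summed to 985 and 916 in the libraries labelled Lyl1-null 1 and 2, against 1066 and 952 in wild type. Mast cell and basophil markers summed to 264 and 212 in the libraries labelled Lyl1-null 1 and 2, against 362 and 288 in wild type. LMPP markers summed to 33323 and 27886 in the libraries labelled Lyl1-null 1 and 2, against 33677 and 34883 in wild type. The part of these cell types in the results was not tested, and in such bulk samples fewer cells of a type and less RNA per cell cannot be told apart.

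The signal of the Lyl1 probe set was nearly gone from the library labelled Lyl1-null 1 and only reduced in the library labelled Lyl1-null 2. The Lyl1 probe set (1419120_at) read 5.14 in the library labelled Lyl1-null 1 and 10.32 in the library labelled Lyl1-null 2, against 12.34 and 12.29 in wild type. The groups did not overlap, as in 17% of all probe sets with both libraries labelled Lyl1-null lower, and wild-type libraries differed from each other by 0.05 while the libraries labelled Lyl1-null differed by 5.18. On the linear scale the library labelled Lyl1-null 1 held 0.692% of the wild-type mean and the library labelled Lyl1-null 2 held 25.1%. Which part of Lyl1 the allele removes relative to the probes was not known, and the source of the second value was not tested. The value of 5.14 lies below the median of all probe-set means, and no detection call was used here, so whether it differs from background was not tested and 0.692% is at best an upper bound.

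**Figure D1:**
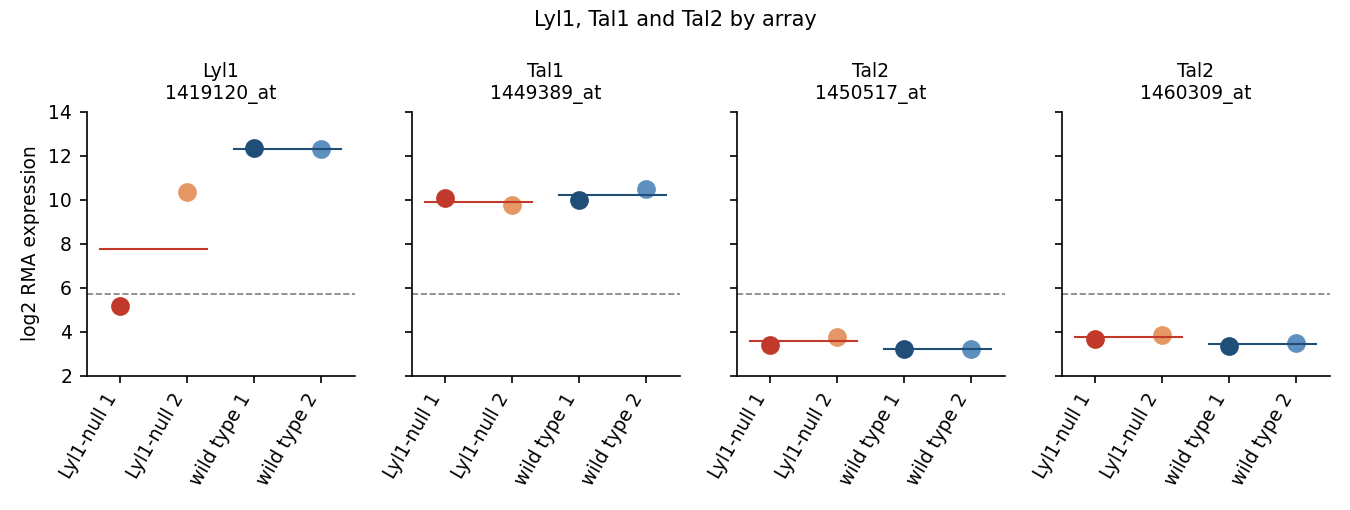
Log2 RMA expression of the 4 probe sets of Lyl1, Tal1 and Tal2 in each array, with the libraries labelled Lyl1-null left of wild type. Points are arrays, solid lines group means of 2 arrays, and the dashed line the median of all probe-set means (5.69). The Lyl1 points of the libraries labelled Lyl1-null 1 and 2 stand at 5.14 and 10.32, far from each other, while the Tal1 points overlap between groups and the Tal2 points all lie below the dashed line.

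Averaged over the libraries labelled Lyl1-null, Lyl1 stood at 7.73 ± 3.66, against 12.32 ± 0.04 in wild type (SD, n = 2 each). The difference was −4.58 (SE 1.53), with a 95% interval from −8.36 to −0.81. It did not pass limma's test over 45037 probe sets (adjusted p = 0.581), in which 2 probe sets passed, 0.00444% of those tested, nor with 1 probe set a gene (adjusted p = 0.644), where 0.00893% of genes passed. The exact permutation test of 2 against 2 libraries cannot give a two-sided p below 0.333, and it gave that value. No other probe set on the array had a lower average difference than Lyl1.

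Taken alone, the library labelled Lyl1-null 1 was 7.17 below wild type on the log2 scale, a difference of −7.17 (SE 0.14), and passed limma's test (adjusted p = 0.0306). Lyl1 was the only probe set of 45037 that passed in that comparison, 0.00222% of those tested. The library labelled Lyl1-null 2 had a Lyl1 difference of −1.99 (SE 0.14), or 3.98-fold lower than wild type, and 78 other probe sets were lower still in that library. Its limma adjusted p was 0.0944 over all probe sets and 0.00471 when 1 probe set a gene above the median mean was fitted, where 14.8% of genes passed, so the call depended on what was tested with it. In these comparisons the single library is assumed to vary like the wild-type libraries, and they share those libraries. The sizes in the libraries labelled Lyl1-null 1 and 2 can be set side by side as 0.692% and 25.1% of wild type.

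The libraries labelled Lyl1-null were also set against each other. Lyl1 in the library labelled Lyl1-null 1 minus that in the library labelled Lyl1-null 2 was −5.18, a 36.3-fold gap in the measured values, which is at best a lower bound, since 5.14 was not tested against background. Only 3 of the other 45036 probe sets had a lower value of this difference. With 1 library on each side this gap is given as a description, with no p-value.

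**Figure D2:**
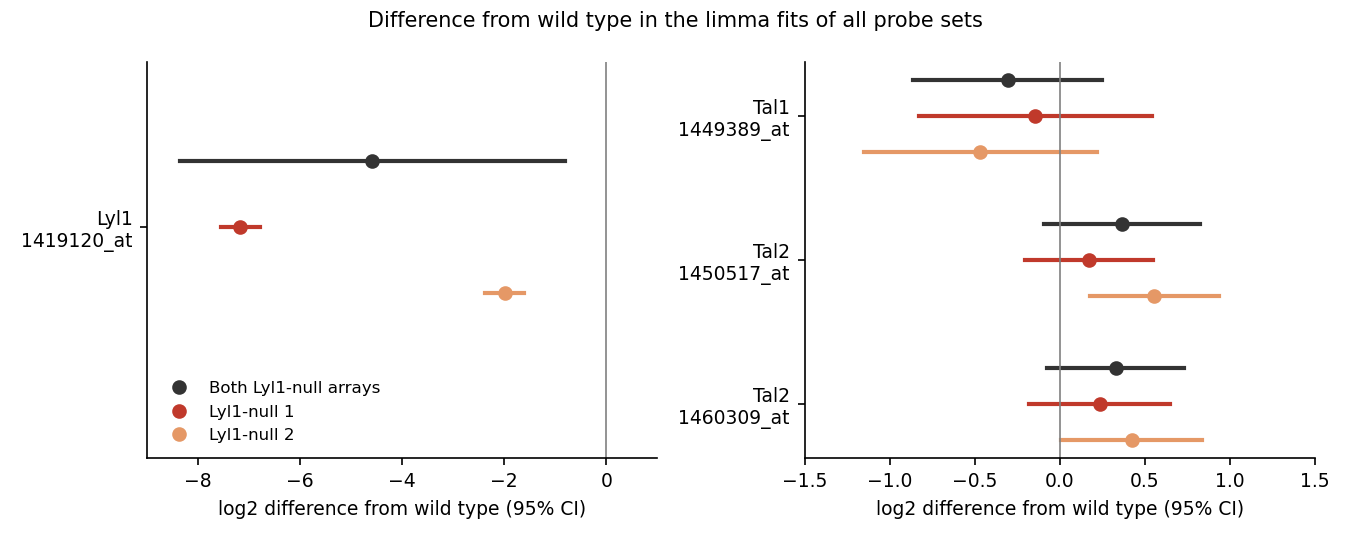
Log2 difference from wild type for the probe sets of Lyl1 (left) and of Tal1 and Tal2 (right, on its own scale), with 95% intervals from limma, for both libraries labelled Lyl1-null together (black), the library labelled Lyl1-null 1 (red) and the library labelled Lyl1-null 2 (orange). The intervals of the library labelled Lyl1-null 1 at −7.17 and of the library labelled Lyl1-null 2 at −1.99 do not overlap for Lyl1, and all 3 Tal1 intervals include 0.

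Tal1, the relative that shares the most functions with Lyl1 in blood stem cells, was not measurably different. Its probe set (1449389_at) read 10.07 and 9.75 in the libraries labelled Lyl1-null 1 and 2, against 9.97 and 10.46 in wild type. The groups overlapped, and the wild-type libraries differed from each other by 0.48, more than the groups differed. The averages were 9.91 ± 0.23 in the libraries labelled Lyl1-null and 10.22 ± 0.34 in wild type (SD, n = 2 each). The difference was −0.31 (SE 0.23, limma adjusted p = 0.617).

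The precision of the Tal1 value can be stated as an interval. The 95% interval of the difference ran from −0.86 to 0.25, or from 0.550-fold to 1.19-fold of wild type, so a higher Tal1 level in the libraries labelled Lyl1-null by more than 1.19-fold lay outside it. For the library labelled Lyl1-null 1 alone the interval was wider, from −0.83 to 0.54, or up to 1.46-fold of wild type. Tal1 was at 90.5% of wild type in the library labelled Lyl1-null 1, where Lyl1 was lowest, and at 72.3% in the library labelled Lyl1-null 2. The single-library differences were −0.14 (SE 0.25, limma adjusted p = 0.918) and −0.47 (SE 0.25, limma adjusted p = 0.272). Between the libraries labelled Lyl1-null 1 and 2 the Tal1 values differed by 0.32. Wild-type replicate 1, with the highest erythroid marker sum (1411), had the lower Tal1 value of its group. Any part of erythroid cells in the Tal1 values was not tested.

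Tal2, a relative known best from brain and from T-cell leukaemia, was dim in every library. Its probe set 1450517_at read 3.38 and 3.76 in the libraries labelled Lyl1-null 1 and 2, against 3.19 and 3.22 in wild type. The other, 1460309_at, read 3.65 and 3.84 in the libraries labelled Lyl1-null 1 and 2, against 3.35 and 3.49 in wild type. Neither came up to that median in any library, so 2 of the 4 member probe sets pass that filter and 2 do not.

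For both Tal2 probe sets the groups did not overlap, with the libraries labelled Lyl1-null higher. The same was true of 27.3% of all probe sets and of 37.2% of those below the median mean, so the pattern is a common one among dim probe sets. The differences were 0.37 (SE 0.19) for 1450517_at and 0.33 (SE 0.16) for 1460309_at, each at a limma adjusted p of 0.581. Their intervals ran from −0.09 to 0.82 and from −0.07 to 0.73. Alone, the libraries labelled Lyl1-null 1 and 2 had differences of 0.17 and 0.56 for 1450517_at. For 1460309_at these were 0.24 and 0.42. Probe sets below the median mean had a median difference of 0.14 over both libraries and of 0.21 in the library labelled Lyl1-null 2 alone. With quantile normalization the Tal2 differences were 0.25 and 0.21. The part of that shift in the Tal2 values was not tested.

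Other bHLH genes of the same wider family, which act outside the blood for the most part, also had a positive median difference. Of 16 genes with a probe set, only Hand1 and Tcf15 reached the median mean. The median difference of the 16 was 0.25, and 14 were positive. All 18193 genes had a median of 0.06 with 41.8% negative, and probe sets below the median mean, where most of these relatives lie, had a median of 0.14. Limma called 0 of them over all probe sets, with 2 at an unadjusted p under 0.05, as were 3551 of all 45037 probe sets. The smallest p-values belonged to Msc (0.44, SE 0.17), Ptf1a (0.55, SE 0.22), a factor of pancreas and nervous system, and Bhlha15 (0.35, SE 0.15), a factor of secretory cells, each at a limma adjusted p of 0.581 and below the median mean. Among Lyl1, Tal1, Tal2 and these relatives, the genes above the median mean were thus Lyl1, Tal1, Hand1 and Tcf15.

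The genes next to Lyl1 on chromosome 8 were read to set the locus beside the gene. The order is that of RefSeq genes on GRCm38.p6, with the 10 nearest genes on each side that had a probe set. The annotated 3′ end of Lyl1 overlaps the next gene, Nfix, by 5 bases. Nfix, a nuclear factor of progenitor cells, read 10.95 and 10.32 in the libraries labelled Lyl1-null 1 and 2, against 10.68 and 10.73 in wild type, so the groups overlapped on its brightest probe set. Over its 5 probe sets the differences ran from −0.70 to 0.33. Trmt1, a tRNA methyltransferase gene on the other side, read 10.03 and 8.77 in the libraries labelled Lyl1-null 1 and 2, against 10.22 and 10.52 in wild type. Its difference was −0.34 in the library labelled Lyl1-null 1 and −1.60 in the library labelled Lyl1-null 2. Those values are of its brightest probe set. In the same order, its other probe sets were at −0.87 and −1.02 (1437314_a_at) and at −0.42 and −2.99 (1451249_at). Nfix and Trmt1 are named for their position, outside the rule for names.

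A gene 3 places from Lyl1, Gadd45gip1, had the smallest p among the 20 neighbours. Gadd45gip1 encodes a protein of the mitochondrial ribosome. It read 6.18 and 6.33 in the libraries labelled Lyl1-null 1 and 2, against 7.80 and 7.86 in wild type, with similar values within each group. The difference was −1.57 (SE 0.15, limma adjusted p = 0.173). With 1 probe set a gene it passed in the library labelled Lyl1-null 1 alone (−1.65, limma adjusted p = 0.0263) and in the library labelled Lyl1-null 2 alone (−1.497, limma adjusted p = 0.00756), where 0.107% and 10.8% of genes passed lower. Over all probe sets neither passed (limma adjusted p = 0.460 and 0.0944). A second, dimmer probe set (1448776_at) went the other way, at 5.76 and 5.59 in the libraries labelled Lyl1-null 1 and 2, against 5.06 and 5.30 in wild type. Between the libraries labelled Lyl1-null 1 and 2, Gadd45gip1 differed by −0.15, where Lyl1 differed by −5.18.

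Over the 20 neighbours of Lyl1 the median difference was −0.27, with 14 negative. As 19 of them reached the median mean, they are set beside all genes that did, with a median of −0.05 and 56.9% negative. Alone, the library labelled Lyl1-null 1 had a median of −0.03, and −0.52 was found in the library labelled Lyl1-null 2. Limma called 0 of the 20 over all probe sets, with 4 at an unadjusted p under 0.05, as were 3551 of all 45037 probe sets. The next smallest p-values after Gadd45gip1 belonged to D8Ertd738e (0.65, SE 0.18) and Mri1 (−0.96, SE 0.27), an enzyme gene of methionine salvage, both at a limma adjusted p of 0.581. With 1 probe set a gene, 1 of 19 neighbours passed lower in the library labelled Lyl1-null 1, where 0.107% of genes did, and 7 passed lower in the library labelled Lyl1-null 2, where 10.8% of genes did.

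**Figure D3:**
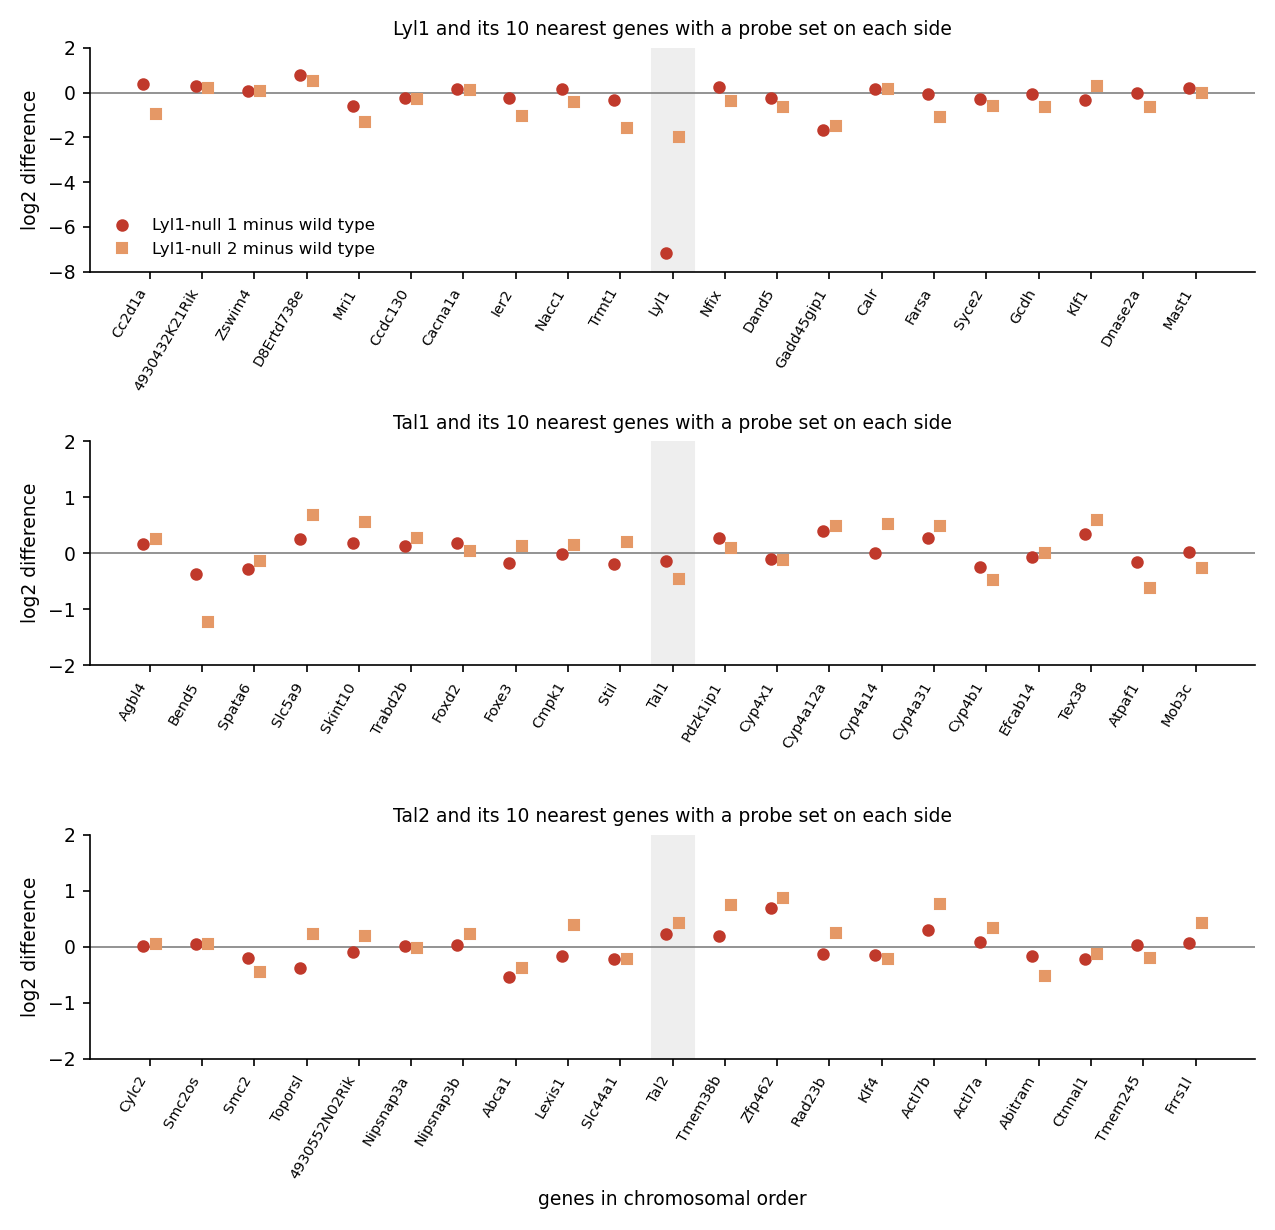
Log2 difference from wild type of Lyl1, Tal1 and Tal2 (shaded, probe set 1460309_at for Tal2) and of the 10 nearest genes with a probe set on each side, in chromosomal order, for the library labelled Lyl1-null 1 (red circles) and the library labelled Lyl1-null 2 (orange squares). Neighbours are shown by their brightest probe set. On that probe set Gadd45gip1 is at −1.65 and −1.497 and Trmt1 at −0.34 and −1.60, and other probe sets of both genes differ.

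Around Tal1 and Tal2, both on chromosome 4, the neighbours lay closer to 0. The median difference was 0.09 for 20 neighbours of Tal1 and 0.04 for 20 neighbours of Tal2. Limma called 0 in either set over all probe sets, with 3 in each at an unadjusted p under 0.05, as were 3551 of all 45037 probe sets. With 1 probe set a gene it called none in the library labelled Lyl1-null 1. In the library labelled Lyl1-null 2 it called 1 higher and 1 lower of 11 neighbours of Tal1 and 3 higher of 11 neighbours of Tal2, where 3.94% of genes passed higher and 10.8% lower. Stil, the centriole gene beside Tal1 that is fused to it in human T-cell leukaemia, read 8.02 and 8.41 in the libraries labelled Lyl1-null 1 and 2, against 8.31 and 8.10 in wild type. Pdzk1ip1, on the other side of Tal1 and known to be expressed with it in erythroid cells, read 8.71 and 8.52 in the libraries labelled Lyl1-null 1 and 2, against 8.46 and 8.41 in wild type. Its difference of 0.18 (SE 0.16) did not pass (limma adjusted p = 0.661). Stil and Pdzk1ip1 are named for their position. By the smallest p, the named neighbours of Tal1 were Tex38 (0.48), Cyp4a12a (0.44), a fatty acid hydroxylase gene, and Bend5 (−0.81), each at a limma adjusted p of 0.581.

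Near Tal2 the smallest p belonged to Zfp462, a zinc finger gene. It read 6.16 and 6.35 in the libraries labelled Lyl1-null 1 and 2, against 5.43 and 5.51 in wild type. The difference of 0.78 (SE 0.16) did not pass (limma adjusted p = 0.581), and its other probe sets, both below the median mean, had differences of 0.81 (1456789_at) and 0.32. Next came Abca1 (−0.45, SE 0.16), a cholesterol transporter gene, and Actl7b (0.54, SE 0.21), both at a limma adjusted p of 0.581.

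The graded pattern of Lyl1, lowest in the library labelled Lyl1-null 1 and between that and wild type in the library labelled Lyl1-null 2, was searched for in other genes. Likeness was Pearson's r over the 4 arrays, among 1926 probe sets of 1689 genes that lay above the median mean and varied by at least 1 on the log2 scale. With 4 arrays r is a description, and the points share the wild-type libraries. Only 1 probe set had an r over 0.99, and 3 had an r under −0.99. Tal1 and Tal2 varied by less than 1 over the arrays and were not searched for.

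Ms4a4c, a membrane protein gene of blood cells, was the most alike (r = 0.996). It read 4.996 and 5.92 in the libraries labelled Lyl1-null 1 and 2, against 6.34 and 6.21 in wild type. Its differences of −1.28 and −0.35 were much smaller than the −7.17 and −1.99 of Lyl1. After it came Arrdc4, an arrestin domain gene, with differences of −1.18 and −0.36 in the libraries labelled Lyl1-null 1 and 2, and the ubiquitin ligase gene Nedd4l with −0.92 and −0.31. Btbd11 had −0.91 and −0.40, Cherp had −1.71 and −0.91, and Bpifc had −1.35 and −0.02. The collagen chaperone gene Serpinh1 (−2.05 and −0.20) and the interleukin-17 receptor chain gene Il17rc (−0.88 and −0.38) closed the set of 8. For each gene the search kept the probe set most like Lyl1. For Ms4a4c, Nedd4l, Btbd11, Cherp and Serpinh1 that was not the brightest probe set of the gene. Their brighter probe sets are not given here, so the pattern is that of the matched probe set. These genes and the opposite ones below were picked on the same 4 arrays, so their differences are a description with no test.

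The most opposite profile was that of Klhl30 (r = −0.998), a kelch-family gene. It read 8.42 and 7.37 in the libraries labelled Lyl1-null 1 and 2, against 6.97 and 7.07 in wild type. Sbspon, a somatomedin B and thrombospondin domain gene, read 7.26 and 6.07 in the libraries labelled Lyl1-null 1 and 2, against 5.44 and 5.36 in wild type. The wild-type values of Sbspon lie below 5.69, so it came over the median mean through the libraries labelled Lyl1-null. Erbb3, a receptor gene of the epidermal growth factor receptor family, had differences of 1.16 and 0.46 in the libraries labelled Lyl1-null 1 and 2, and the class I histocompatibility gene H2-Q5 had 1.26 and 0.56.

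**Figure D4:**
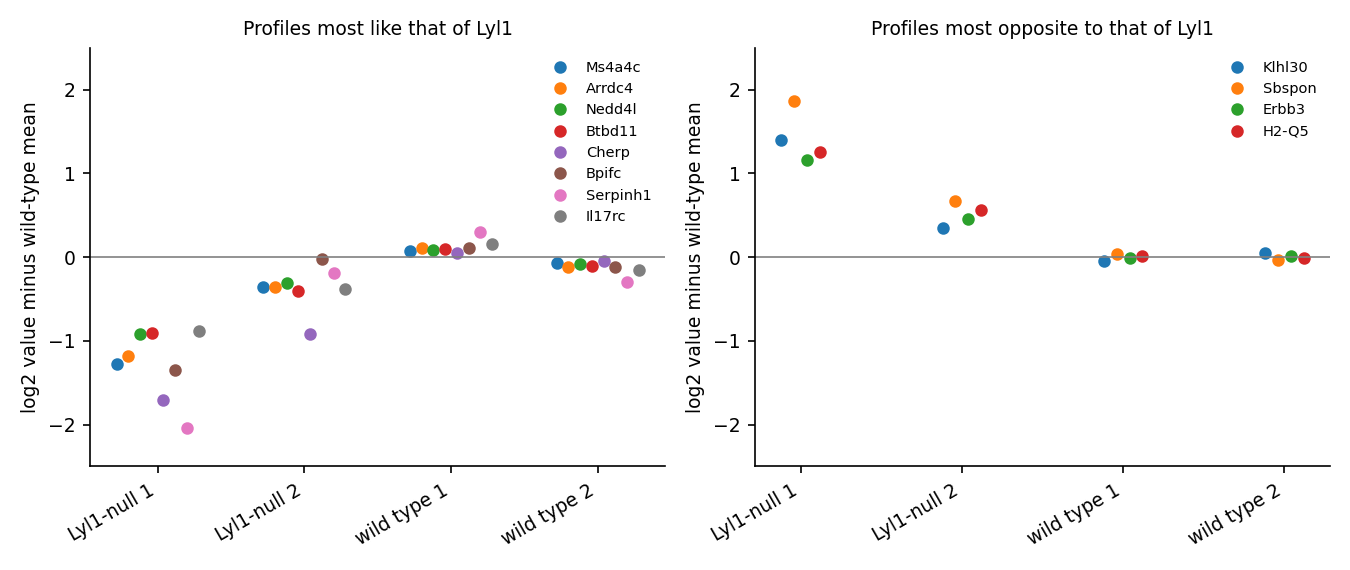
Log2 value minus the wild-type mean in each array for the 8 genes whose profile over the 4 arrays was most like that of Lyl1 (left) and the 4 most opposite to it (right). Points are arrays, set slightly apart by gene, and each gene is shown by its most alike or most opposite probe set. The genes on the left lie between −2.05 and −0.88 in the library labelled Lyl1-null 1 and nearer to 0 in the library labelled Lyl1-null 2, and those on the right lie between 1.16 and 1.86 in the library labelled Lyl1-null 1.

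Transcripts of the proteins that pair or form complexes with Lyl1 and Tal1 shifted little in their median. Of 34 partner genes, 29 reached the median mean and 22 had a negative difference, with a median of −0.11, against −0.05 over the genes above the median mean. In 14 of the 34 both libraries labelled Lyl1-null lay below both wild-type libraries, and in 4 above both. Of all probe sets, dim ones included, 17% and 27.3% did so. The share above was higher, at 37.2%, among probe sets below the median mean, where few of the partners lie. Limma called 0 over all probe sets, with 3 at an unadjusted p under 0.05, as were 3551 of all 45037 probe sets. With 1 probe set a gene it called 0 of 29 in the library labelled Lyl1-null 1, where 0.196% of genes passed. In the library labelled Lyl1-null 2 it called 4 lower and 2 higher, where 10.8% and 3.94% of genes passed. The 4 were Tcf4, Ldb1, Gata2 and Rcor1 and the 2 were Runx1 and Id4, and these names, apart from Gata2, were chosen after their values were seen. Runx1 rested on its brightest probe set (1452531_at), at 0.99 in that library. All its other probe sets were lower than wild type there, from −0.64 to −0.03.

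Gata2, the GATA factor of stem and progenitor cells, had the smallest p among the partners. It read 9.54 and 9.77 in the libraries labelled Lyl1-null 1 and 2, against 10.48 and 10.47 in wild type. The groups did not overlap, and the difference was −0.82 (SE 0.16, limma adjusted p = 0.581). A second Gata2 probe set (1428816_a_at) read 7.07 and 7.04 in the libraries labelled Lyl1-null 1 and 2, against 7.62 and 7.65 in wild type. Both probe sets were thus lower in each library labelled Lyl1-null than in either wild-type library. Gfi1, a repressor of early lymphoid and myeloid cells, read 9.36 and 9.35 in the libraries labelled Lyl1-null 1 and 2, against 10.24 and 9.84 in wild type.

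Ldb2, a relative of the bridging factor Ldb1, lay below the median mean, with a difference of 0.45 (SE 0.18). The direct dimer partner gene Tcf3 read 10.16 and 9.61 in the libraries labelled Lyl1-null 1 and 2, against 9.95 and 10.02 in wild type, so the groups overlapped. Lmo2, the adaptor of the complex, read 12.68 and 13.11 in the libraries labelled Lyl1-null 1 and 2, against 13.10 and 12.90 in wild type, and overlapped as well. Their differences were −0.10 (SE 0.22, limma adjusted p = 0.860) and −0.11 (SE 0.20, limma adjusted p = 0.842).

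Genes reported elsewhere as bound or regulated by Tal1 or Lyl1 went in either direction. Of 20 listed, 18 had a probe set, 10 had a positive difference and 8 a negative one, and 11 reached the median mean. Limma called 0 over all probe sets, with 3 at an unadjusted p under 0.05, as were 3551 of all 45037 probe sets. Cdkn1a, the cell cycle inhibitor p21, read 10.96 and 11.80 in the libraries labelled Lyl1-null 1 and 2, against 9.51 and 9.28 in wild type. The difference was 1.98 (SE 0.30, limma adjusted p = 0.416). The library labelled Lyl1-null 2, with the higher Lyl1 signal, had the higher value. With 1 probe set a gene Cdkn1a passed in each library labelled Lyl1-null alone, at limma adjusted p-values of 0.0456 and 0.0043, where 0.0893% and 3.94% of genes passed higher. Over all probe sets neither passed (limma adjusted p = 0.634 and 0.0944). A second probe set (1421679_a_at) read 9.65 and 7.96 in the libraries labelled Lyl1-null 1 and 2, against 7.99 and 8.14 in wild type, with a value apart from wild type in the library labelled Lyl1-null 1 alone.

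Kit, the stem cell factor receptor, which was also a sorting marker, read 9.56 and 8.97 in the libraries labelled Lyl1-null 1 and 2, against 10.07 and 10.27 in wild type. The difference was −0.90 (SE 0.23, limma adjusted p = 0.581). Alone, the libraries labelled Lyl1-null 1 and 2 had Kit differences of −0.61 and −1.20. Its other probe set was dim (1415900_a_at), at 4.96 and 4.64 in the libraries labelled Lyl1-null 1 and 2, against 4.66 and 4.94 in wild type.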

How the data were processed

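Expression arrays were hybridised with amplified, biotin-marked LMPP RNA. The deposited log2 values came from RMA, as the submitters' processing notes name it, with no version. The values were used as deposited. Symbols come from the platform annotation: 34945 of 45037 probe sets have 1 symbol, 932 several and 9160 none listed.

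All probe sets were fitted in limma 3.58.1 (R 4.3.3) by lmFit followed by eBayes, as a two-sided test with Benjamini-Hochberg adjustment at 0.05 and no filter. Adjusted p-values come from this fit unless the text says 1 probe set a gene, a separate fit of 11196 genes (the brightest probe set, at or above the median mean). In 311 probe sets the deposited wild-type values were identical, with no tolerance, against 19 in the fit of 1 probe set a gene. Replicate numbers were not used as pairs in the main fit. The deviations of same-numbered libraries correlated at −0.24 over probe sets. With 1 difference in each group, that value cannot show whether same-numbered libraries were handled together. On simulated data with known changes the 4-array fit recovered nearly all of the largest changes and hardly any of the smallest, so small changes that did not pass say little. A large difference could also fail in that fit. The Lyl1 difference of −4.58 did not pass (limma adjusted p = 0.581). Lyl1 differed by 5.18 between the libraries labelled Lyl1-null and by 0.05 between the wild-type libraries. A large change that did not pass can thus say little as well. Python 3.11.15 was used for the descriptions. The number of arrays limits the precision.

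The members, lists and the rule for names were chosen with earlier results of these data known. The rule took the members, the 8 most alike and 4 most opposite profiles, and, as no list or neighbour gene passed, the 3 smallest p-values in each, with Kit, Gfi1, Gata2, Tcf3, Lmo2 and Cdkn1a always. Alternatives were filters, 1 probe set a gene, quantile normalization, median centring, other priors, array weights, a threshold of 0.10, a replicate block and each library left out. Marker lists of megakaryocytes, mast cells, B, T and NK cells and granulocytes were read as well.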

Additional observations from a re-analysis of the deposited data

How the results depend on the processing

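Lyl1, Tal1 and both Tal2 probe sets kept their direction in every alternative that gave a value. Tal2 had none under the filters on dim probe sets, and the bHLH relatives had none at the 70th percentile. In the comparison of both libraries labelled Lyl1-null with wild type, the 2 calls became 1 at the 70th percentile, 1 with 1 probe set a gene, 9 with quantile normalization, 9 at a threshold of 0.10, 12 with array weights, and 0 to 1 with a library left out. With the replicate number as a block, 0 probe sets passed and the Lyl1 adjusted p was 0.725; the pairing moved no member across the threshold. The crossed block, chosen after seeing the data, gave 2 calls and 0.453 for Lyl1. Leaving out a library moved the Lyl1 difference between −7.17 (without the library labelled Lyl1-null 2, adjusted p = 0.0306) and −1.99 (without the library labelled Lyl1-null 1), and that of Tal1 between −0.55 and −0.06. For the library labelled Lyl1-null 1 alone, the 1 call became 11 with the median filter, 12 at the 70th percentile, 22 with 1 probe set a gene, 72 with quantile normalization, 35 with median centring and 10 with a robust prior. For the library labelled Lyl1-null 2 alone, the 1 call became 2269, 1997, 1652, 4766, 4893 and 2300 in the same order, 2 with a trended prior and 4085 at a threshold of 0.10. Lyl1 then passed in that library, at −1.99 with the filters, 1 probe set a gene, the robust prior and the looser threshold, at −1.89 with quantile normalization and at −2.11 with centring. For the difference between the libraries labelled Lyl1-null, the 0 calls became 10, 406, 333, 914, 468 and 23 in the same order, 2 with a trended prior and 4 at a threshold of 0.10, against 8285 at an unadjusted p under 0.05. These counts have 1 library on each side and describe the settings only. The Lyl1 gap was −5.18, −5.26 with quantile normalization and −5.10 with centring. The partners' median was −0.21 at the 70th percentile (25 genes), −0.18 with centring and −0.18 to −0.11 with a library left out. The relatives' median was 0.16 with quantile normalization and 0.13 to 0.34 with a library left out. The cause was not tested. A single library left out of a comparison with 1 library labelled Lyl1-null leaves no residual degrees of freedom, so that was not run.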
